A study of Mus musculus with 48 samples.

Results

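The liver of female mice after 2 weeks on a high-fat diet (HFD) was compared with the liver of female mice kept on a regular diet (RD) for the same time. The comparison uses 6 of the 48 libraries of the series, the 3 liver libraries whose names mark female, 2 weeks and HFD (numbered 1, 2 and 5) against the 3 whose names mark female, 2 weeks and RD (numbered 1, 2 and 4). All mice were C57BL6/J, a common inbred laboratory strain bought from Charles River, with no transgene or deletion named. Feeding without restriction started at 8 weeks of age, with a Research Diets product that draws 45% of its calories from fat, or with Teklad chow. The chow is another product, so the diets may differ in more than their fat. Libraries of polyA RNA, made with a stranded kit from 200 ng of total RNA, were sequenced, and levels below are CPM, a gene's counts relative to the total of its library, scaled between libraries. Values are given in the order HFD females 1, 2 and 5 and RD females 1, 2 and 4. The labels give each library a group number and do not say that each came from a separate animal. The p-values therefore measure the spread between libraries, which may in part be technical. Unless stated otherwise this spread was estimated from all 24 liver libraries in 8 groups, with males and 12-week mice included.

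The liver makes cholesterol from acetyl-CoA through mevalonate, isoprenoid phosphates, squalene and lanosterol. The transcription factor SREBP2 switches on nearly every gene of this route when sterols in the endoplasmic reticulum membrane are low, and is held back with its escort Scap by the Insig proteins when sterols are plentiful. SREBP2 works on promoters together with general factors such as NF-Y, which binds CCAAT letters. Fat reaching the liver is oxidized in mitochondria and peroxisomes under the nuclear receptor PPAR alpha, while sugar in the diet drives fatty acid synthesis through SREBP1c and ChREBP.

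The promoters of the 5 cholesterol synthesis genes with the smallest p in this comparison are shown because those genes carry the main difference. Each is the 250 bases before the RefSeq start, taken from the RefSeq table of GRCm38.p6 and printed 5′ to 3′ on the gene's strand, with CCAAT, or ATTGG where the letters lie on the other strand, in capitals. The windows are chrX:72918271-72918520 (plus strand) for Nsdhl, chr5:4104698-4104947 (minus) for Cyp51, chr13:8885356-8885605 (plus) for Idi1, chr8:64733579-64733828 (minus) for Msmo1 and chr9:42264301-42264550 (minus) for Sc5d.
Nsdhl: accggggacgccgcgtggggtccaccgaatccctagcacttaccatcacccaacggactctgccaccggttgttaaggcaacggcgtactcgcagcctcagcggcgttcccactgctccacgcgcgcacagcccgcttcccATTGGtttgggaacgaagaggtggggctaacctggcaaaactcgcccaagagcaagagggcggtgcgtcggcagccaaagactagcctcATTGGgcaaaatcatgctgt
Cyp51: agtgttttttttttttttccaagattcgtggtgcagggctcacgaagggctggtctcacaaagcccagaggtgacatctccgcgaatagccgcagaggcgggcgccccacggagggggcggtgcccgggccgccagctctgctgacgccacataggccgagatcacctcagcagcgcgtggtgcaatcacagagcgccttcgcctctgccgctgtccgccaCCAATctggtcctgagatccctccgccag
Idi1: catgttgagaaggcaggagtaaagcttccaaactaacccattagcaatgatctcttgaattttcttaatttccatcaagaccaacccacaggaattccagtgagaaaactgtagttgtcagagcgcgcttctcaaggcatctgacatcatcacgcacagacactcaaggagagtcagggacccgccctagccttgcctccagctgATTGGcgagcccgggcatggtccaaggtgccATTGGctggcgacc
Msmo1: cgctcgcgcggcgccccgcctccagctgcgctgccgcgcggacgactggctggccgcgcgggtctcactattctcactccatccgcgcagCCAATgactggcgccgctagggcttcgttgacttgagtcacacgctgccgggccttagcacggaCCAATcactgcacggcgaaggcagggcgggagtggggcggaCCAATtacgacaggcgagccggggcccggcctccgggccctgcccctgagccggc
Sc5d: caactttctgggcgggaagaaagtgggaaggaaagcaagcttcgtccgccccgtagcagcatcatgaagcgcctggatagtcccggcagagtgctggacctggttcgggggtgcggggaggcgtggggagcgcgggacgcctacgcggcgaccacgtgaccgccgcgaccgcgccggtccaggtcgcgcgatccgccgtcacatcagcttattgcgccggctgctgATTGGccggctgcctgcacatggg

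Nsdhl carries the letters 109 and 20 bases before its RefSeq start, Cyp51 at 29, Idi1 at 45 and 14, Msmo1 at 160, 96 and 55, and Sc5d at 24, counted to the first base of the match. The gene positions given below are from another annotation, GENCODE. For Cyp51, Idi1 and Msmo1 they reach into the window, and every match of these genes lies inside the GENCODE gene. The windows of Nsdhl and Sc5d lie outside it. Of the 21 cholesterol synthesis genes of the list used here 16 were found in the RefSeq table, and 15 of these (93.8%) had CCAAT on either strand in at least 1 window. Of all 27025 genes in the RefSeq set, 37.5% did, and 33.8% of all 32851 windows of this length. The letters TCACNCCAC, a core of the sterol regulatory element, were found on either strand in 1 of the 16 genes, Hmgcs1, against 1.22% of all genes and 1.05% of all windows. The 2 motifs were searched separately and may overlap at an end. A match describes letters only.

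Total expected counts ran from 50.9 M to 74.2 M in the HFD females and from 65.7 M to 78.3 M in the RD females, within 50.9 M to 80.1 M over the 24 liver libraries. Hepatocyte markers dominated every library, with a summed level of 133617 to 169052 CPM over 12 genes. A pair of HFD libraries stood apart from the rest. HFD female 5 had 2.97% of its counts on the 13 mitochondrially encoded genes, against 3.60 to 13.4% in the other 23 liver libraries, and the macrophage receptor Marco was at 153 CPM there and at most 58.8 CPM elsewhere. The summed level of 14 Kupffer cell and macrophage markers was 1606 CPM in HFD female 5 and 798 to 897 CPM in the other 5 libraries. HFD female 1 held transcripts of adrenal steroid synthesis, described in the closing section. No 2 of the 3 libraries of either diet agreed within sampling noise, and other pairs were not checked. In bulk tissue, fewer cells of a type and less RNA per cell cannot be told apart.

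In all, 40 of 15897 genes tested differed between the diets (0.252%), 35 lower on HFD (0.22%) and 5 higher (0.0315%), with edgeR's quasi-likelihood test and a Benjamini-Hochberg adjusted p under 0.05. The log2 fold changes of these genes (HFD over RD) ranged in size from 0.52 to 3.13, and the median over all genes tested was 0.00. In each of the 40 the HFD and RD libraries did not overlap. All 3 HFD libraries lay below all 3 RD libraries in 1445 genes (9.09% of those tested) and above them in 1251 (7.87%). The number called depended on single libraries. It was 7 without HFD female 1, 14 without HFD female 2, 12 without RD female 1 and 12 without RD female 2, and 0 of 14842 genes were called by edgeR from the 6 libraries alone, where 1182 had an unadjusted p under 0.05. DESeq2 on all 24 liver libraries called 181 genes (1.14%), 59 higher (0.371%) and 122 lower (0.767%), the 40 among them. The 40 kept their direction in every setting tried. As their groups did not overlap and the settings reuse these libraries, this was nearly assured. The genes called with each of the 6 libraries left out in turn were Cyp1a2, Cyp3a44, Cyp51, Idi1, Mpv17l and Nsdhl, and 11 of the 40 were called in none of these fits.

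Cholesterol synthesis held the most called genes of the 20 pathway lists. Of its 21 members, all tested, 11 fell on HFD and none rose, and the median log2 fold change was -1.49. All 21 had a fold change below 0, and in 18 every HFD library lay below every RD library. Over all 15897 genes these counts were 7858 and 1445. The list was drawn up with an earlier result on these libraries known, so its direction is not independent evidence. Leaving out HFD female 1 left 3 members called, HFD female 2 left 4, RD female 1 left 3 and RD female 2 left 7, while the median stayed between -1.22 and -1.75 with any 1 library left out. The 12 female liver libraries alone called 4 members, the 6 libraries alone called 0 with a median of -1.47, and DESeq2 called 17.

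The route from acetyl-CoA to the isoprenoid units was lower at several steps. Hmgcs1 (chr13:119690379-119708260), which makes HMG-CoA, stood at 133, 199 and 214 CPM on HFD and 857, 518 and 359 CPM on RD, a log2 fold change of -1.66 ± 0.34 (SE) with an edgeR adjusted p of 0.0412. Mvd (chr8:122433601-122443422), the decarboxylase that forms isopentenyl diphosphate, had 3.73, 5.20 and 6.17 CPM against 32.0, 14.8 and 12.6 CPM (-1.98 ± 0.35, edgeR adjusted p = 0.0146), 3.94-fold lower. Idi1 (chr13:8885501-8892451), the isomerase that follows it, was at 81.6, 108 and 90.9 CPM against 508, 324 and 255 CPM (-1.96 ± 0.27, edgeR adjusted p = 0.00177). In all of these RD female 1 was the highest library and HFD female 1 the lowest, and the HFD range ended below the RD range. The other members described from this stretch were not called by edgeR, while DESeq2 called Fdps, Pmvk and Acat2, all lower. Fdps, which joins isoprenoid units to farnesyl diphosphate, had 32.1, 51.0 and 164 against 322, 204 and 179.7 CPM (-1.52 ± 0.43), with HFD female 5 close to the RD range. Pmvk (-1.38 ± 0.41) and Acat2 (-1.29 ± 0.32) also had HFD female 5 as the highest HFD library, and without that library edgeR called Fdps (-2.50, adjusted p = 0.00315), Pmvk (-2.29, adjusted p = 0.00567) and Acat2 (-1.75, adjusted p = 0.0340). Mvk, the mevalonate kinase, overlapped between the diets at 8.84, 11.9 and 18.8 and 23.6, 19.2 and 15.4 CPM. Ggps1, which diverts farnesyl diphosphate to protein prenylation, also overlapped, with a log2 fold change of -0.16 ± 0.17.

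The steps that commit isoprenoids to sterols were lower as well. Fdft1, squalene synthase (chr14:63145150-63179578), fell from 187, 126 and 98.5 CPM on RD to 18.8, 29.3 and 62.7 CPM on HFD (-1.89 ± 0.34, edgeR adjusted p = 0.0197). Lss, lanosterol synthase (chr10:76531588-76557138), fell from 189, 109 and 78.6 to 27.0, 41.7 and 36.7 CPM (-1.84 ± 0.35, edgeR adjusted p = 0.0297), with RD female 1 far above the other RD libraries. Sqle, the oxygen-dependent epoxidase between them, had 23.9, 32.4 and 51.1 against 156, 101 and 74.3 CPM and just missed the threshold (-1.62 ± 0.35, edgeR adjusted p = 0.0560).

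After lanosterol, the steps that remove methyl groups held the 2 genes with the smallest p-values of all tested, Nsdhl and Cyp51. Nsdhl, a sterol dehydrogenase of that removal (chrX:72918557-72958514), had 27.1, 36.0 and 37.5 CPM on HFD and 128, 114 and 95.0 CPM on RD, 3.34-fold lower (-1.74 ± 0.19, edgeR adjusted p = 0.000213). Cyp51, the lanosterol demethylase (chr5:4081145-4104746), had 59.4, 79.9 and 102 against 332, 244 and 186 CPM (-1.66 ± 0.21, edgeR adjusted p = 0.000921). Msmo1, the sterol methyl oxidase (chr8:64718139-64733792), had 57.1, 64.4 and 73.9 against 232, 176 and 127 CPM (-1.45 ± 0.23, edgeR adjusted p = 0.00658). The 3 genes share the pattern of the early steps, with RD female 1 highest of all 6 libraries and HFD female 1 lowest. Over the list RD female 1 was the highest RD library in 18 of 21 members and HFD female 1 the lowest HFD library in 18 of 21, against 5649 and 4934 of all 15897 genes. Hsd17b7, which works beside Nsdhl, had 52.6, 53.3 and 20.4 against 108, 85.6 and 63.9 CPM (-1.03 ± 0.25, edgeR adjusted p = 0.0960), the groups apart but the call missed.

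The desaturation, reduction and isomerization steps after lanosterol differed among themselves. Sc5d, a sterol desaturase (chr9:42251595-42264256), fell from 1192, 854 and 811 to 325, 411 and 402 CPM (-1.33 ± 0.23, edgeR adjusted p = 0.0146). Dhcr7, which reduces dehydrocholesterol to cholesterol (chr7:143823145-143848410), fell from 159.9, 119 and 104 to 35.5, 44.4 and 56.3 CPM (-1.49 ± 0.26, edgeR adjusted p = 0.0146). Tm7sf2, a sterol reductase (chr19:6062821-6068373), fell from 113, 119 and 104 to 45.3, 54.5 and 53.5 CPM (-1.14 ± 0.20, edgeR adjusted p = 0.0146), with little spread inside either group. Ebp, the sterol isomerase, overlapped, with HFD female 5 at 248 CPM above every RD library and HFD females 1 and 2 below them (-0.18 ± 0.18).

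**Figure D1:**
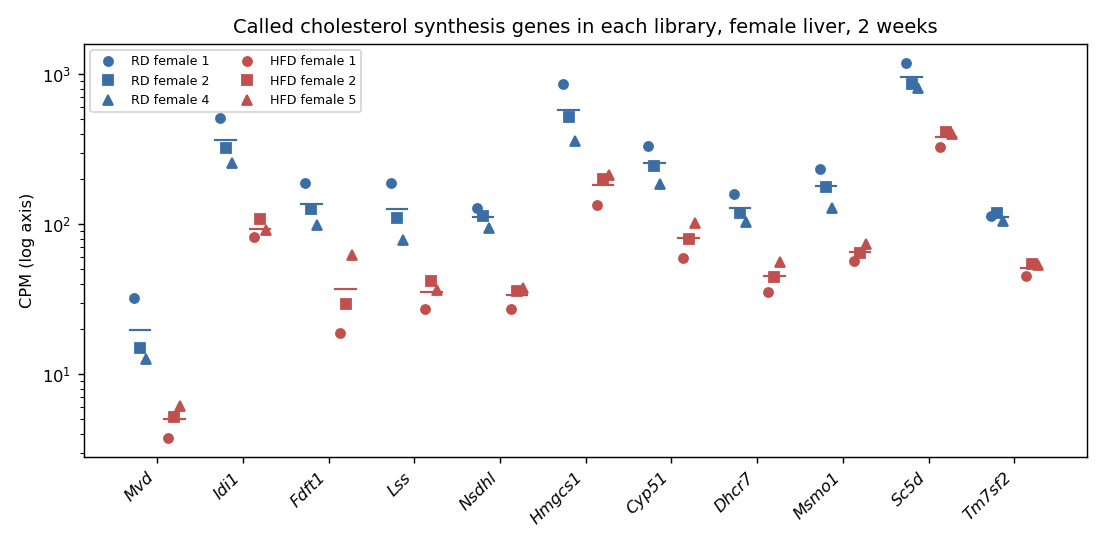
CPM on a log axis of the 11 called cholesterol synthesis genes in each of the 6 libraries, ordered by fold change, with 1 symbol per library number and a bar at the mean of each diet. In each gene all 3 HFD libraries (red) lie below all 3 RD libraries (blue), and RD female 1 is usually the highest and HFD female 1 the lowest.

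Most genes that govern this route had smaller differences than the enzymes. None of the 13 tested members of the SREBP2 regulation and cholesterol uptake list was called by edgeR and DESeq2 called 2, both lower. Tmem97, a sterol-regulated membrane protein and 1 of these, had 32.7, 35.2 and 51.0 against 56.9, 69.2 and 58.6 CPM (-0.64 ± 0.16, edgeR adjusted p = 0.121). The median log2 fold change was -0.25. Srebf2 itself had 62.1, 63.6 and 47.2 against 89.1, 72.0 and 68.2 CPM (-0.41 ± 0.17), Scap 131, 143 and 120.5 against 180.4, 225 and 202 CPM (-0.62 ± 0.18), and in both the groups did not overlap. Insig1, a feedback regulator that SREBP2 induces, overlapped, from 142, 223 and 334 CPM on HFD to 677, 304 and 257 CPM on RD (-0.82 ± 0.33). The 12 LXR and cholesterol export genes had no edgeR or DESeq2 call and a median of -0.05. Among them the export pumps Abca1 (-0.07 ± 0.35), Abcg5 (0.18 ± 0.21) and Abcg8 (-0.03 ± 0.22) all overlapped between the diets, and Cyp7a1, the rate-limiting enzyme of bile acid synthesis, had 104, 40.1 and 47.8 against 105, 98.3 and 120.0 CPM.

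Fatty acid synthesis genes lay mostly below 0 with few calls. Of 23 members 1 fell (Elovl6) and none rose, and the median log2 fold change was -0.52. In 11 all HFD libraries lay below all RD libraries, against 9.09% of all genes tested. Elovl6, which elongates palmitate (chr3:129532355-129638495), had 44.9, 61.9 and 66.3 CPM on HFD and 228, 145 and 189 CPM on RD (-1.70 ± 0.33, edgeR adjusted p = 0.0354), and was not called once any 1 of the 6 libraries was left out. Acss2, which activates acetate, had the wider gap of 57.5, 81.1 and 167 against 525, 566 and 484 CPM, but HFD female 5 was well above the other HFD libraries and edgeR did not call it (-2.37 ± 0.53, adjusted p = 0.0769). Acaca and Acacb, the acetyl-CoA carboxylases, had log2 fold changes of -0.92 ± 0.24 and -1.40 ± 0.43 with groups apart. Scd1, the main liver desaturase, had 834, 5442 and 2645 against 11695, 9499.5 and 10486 CPM, with the HFD libraries spread widely (-1.83 ± 0.71, edgeR adjusted p = 0.396). Fasn, fatty acid synthase, overlapped, since HFD female 5 with 531 CPM lay above RD females 2 and 4 (-0.52 ± 0.46). Srebf1, which encodes SREBP1c, also overlapped (0.13 ± 0.45), and Mlxipl, which encodes ChREBP, had 314, 308 and 323 against 356, 359.8 and 425 CPM (-0.27 ± 0.16). DESeq2 called 5 members, all lower: Elovl6, Acss2, Acaca, Acacb and Me1.

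Genes of fatty acid oxidation and ketone body formation lay above 0 with no edgeR call. The median over 32 members was 0.51, and 30 were above 0, Eci1 among them, against 8017 of all 15897 genes. In 13 all HFD libraries were above all RD libraries, against 7.87% of all genes tested. DESeq2 called 9, all higher, among them Acadvl, Acadm, Hadha, Acaa2, Decr1, Bdh1 and Vnn1. Bdh1, which interconverts the ketone bodies, had 356, 343 and 313 CPM on HFD and 219, 189 and 221 CPM on RD (0.69 ± 0.15, edgeR adjusted p = 0.0560). Decr1, needed for unsaturated fatty acids, had 233, 201 and 211 against 131, 134 and 145 CPM (0.65 ± 0.15, edgeR adjusted p = 0.0719). In both the groups did not overlap and the differences were modest.

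The genes usually taken as PPAR alpha targets split the HFD libraries. Cyp4a14, a fatty acid hydroxylase, had 2282, 1109.9 and 512 CPM on HFD against 312, 719.6 and 454 CPM on RD (1.39 ± 0.74, edgeR adjusted p = 0.557). Vnn1, a pantetheinase, had 185, 135 and 69.8 against 46.3, 54.2 and 54.3 CPM (1.33 ± 0.33, edgeR adjusted p = 0.121), and the acyl-CoA thioesterase Acot1 73.6, 40.4 and 21.0 against 13.0, 24.5 and 13.1 CPM (1.42 ± 0.62). In each of these HFD female 1 was highest and HFD female 5 lowest among the HFD libraries, and in Cyp4a14 and Acot1 HFD female 5 lay inside the RD range. Over the list HFD female 1 was the highest HFD library in 26 of 32 members and HFD female 5 the lowest in 25, against 4842 and 7254 of all 15897 genes. Without HFD female 5 edgeR called 2 members, Acadm (0.75, adjusted p = 0.0161) and Vnn1 (1.63, adjusted p = 0.0407). Ppara itself overlapped, with HFD female 5 at 50.2 CPM and the other HFD libraries at 169 and 191 CPM. Cpt1a, which admits fatty acids to mitochondria, overlapped at 657, 585 and 370.2 against 277, 411 and 448 CPM (0.50 ± 0.22). Eci1 was listed at or near 0 in all 6 libraries and its fold change is not read.

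**Figure D2:**
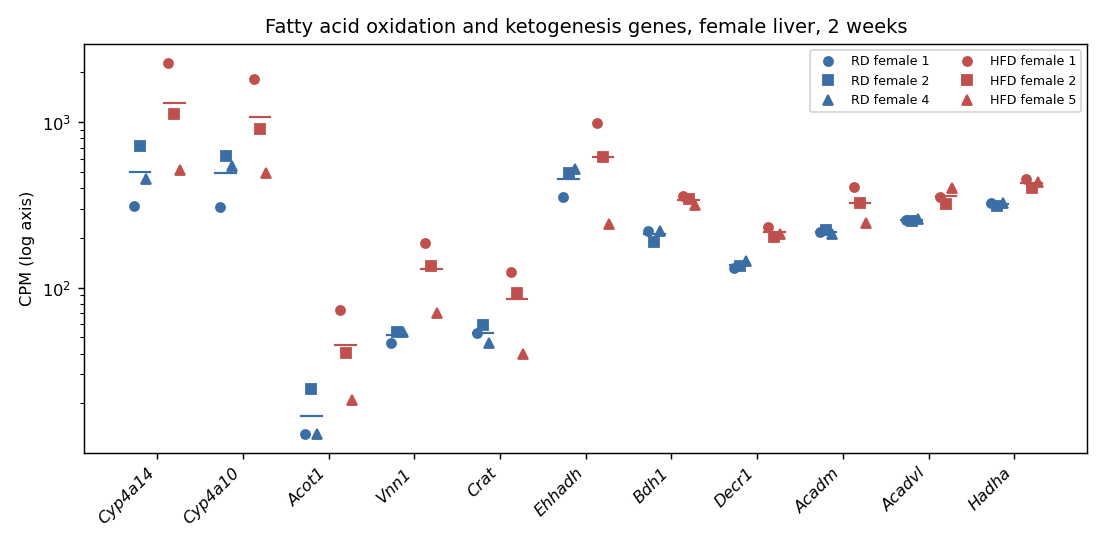
CPM on a log axis of 11 fatty acid oxidation and ketogenesis genes in each library, with 1 symbol per library number and a bar at the mean of each diet. Vnn1, Bdh1, Decr1, Acadm, Acadvl and Hadha are higher in all 3 HFD libraries (red). In Cyp4a14, Cyp4a10, Acot1, Crat and Ehhadh HFD female 5 (triangle) drops to the level of the RD libraries (blue) or below.

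The anaplerotic enzyme Pcx was the 1 called member of the 16 gluconeogenesis and pyruvate genes. Pcx, pyruvate carboxylase (chr19:4510472-4621752), had 247, 217 and 227 CPM on HFD and 87.7, 107 and 90.1 CPM on RD, 2.42-fold higher (1.28 ± 0.25, edgeR adjusted p = 0.0354). Both groups were tight and far apart, but the call was lost with any 1 library left out (edgeR adjusted p from 0.0725 to 0.152). Among the hormone-controlled genes of glucose output, Pck1 overlapped at 2516, 3707 and 4426 and 3026, 3985 and 3381 CPM (0.04 ± 0.30), as did G6pc (-0.38 ± 0.39), and the median of the list was 0.11. Of 14 glycolysis genes none was called by edgeR and the median was 0.34. Ldha, lactate dehydrogenase, had 858, 839 and 641 against 454, 439 and 389 CPM (0.87 ± 0.20, edgeR adjusted p = 0.0770), and was the 1 member DESeq2 called. The fructose kinase Khk was highest in HFD female 5, at 318 CPM, and overlapped between the diets.

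Some enzymes of foreign-compound metabolism fell. Of 38 cytochrome P450 and conjugation genes 4 fell and none rose by edgeR, with a median of -0.27. DESeq2 called 5 lower and 1 higher (Cyp2b13). Without HFD female 1, HFD female 2 or RD female 1 edgeR called 2. Cyp1a2 (chr9:57676937-57683703), a hepatocyte enzyme of the central vein zone that clears caffeine, had 235, 250.2 and 256 CPM on HFD and 488, 731 and 656 CPM on RD, 2.53-fold lower (-1.34 ± 0.18, edgeR adjusted p = 0.00177). The HFD values lay within a narrow range and far below the RD values. Another central vein marker, Cyp2e1, had 7781, 7509 and 6118 against 4530.2, 4877 and 5905 CPM (0.48 ± 0.18) with the groups apart in the other direction, and the median of the 9 such markers was 0.00. Ahr, the receptor that induces Cyp1a2, overlapped (-0.28 ± 0.33).

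Genes known for higher expression in female than male liver included a few that fell. Of 25 female-biased genes the median was -0.56, and in 11 all HFD libraries lay below all RD libraries, against 9.09% of all genes tested. By edgeR 3 fell and none rose, and DESeq2 called 3 lower and 1 higher (Cyp2b13). All of these called genes are also on the cytochrome P450 and conjugation list and are counted there too. Cyp3a44 (chr5:145773983-145805874) had 144, 140.3 and 137 CPM on HFD and 395, 403 and 280.3 CPM on RD (-1.35 ± 0.19, edgeR adjusted p = 0.00217). Cyp3a16 (chr5:145436309-145469723) had 76.9, 63.7 and 43.8 against 376, 348 and 198 CPM, 4.99-fold lower (-2.32 ± 0.46, edgeR adjusted p = 0.0388). These neighbours, like Cyp3a41a at 1230.2, 1739 and 1318 against 3341, 2905 and 2658 CPM and Cyp3a41b (-3.26 ± 0.79, neither called), are near-identical copies, and the counting could have split their reads either way. Sult2a1, a steroid and bile acid sulfotransferase (chr7:13796246-13837409), had 55.7, 30.0 and 87.1 against 283, 135 and 184 CPM (-1.80 ± 0.31, edgeR adjusted p = 0.0146). The direction was the opposite in Cyp2b13, another female-biased P450, at 261, 278 and 289 against 121, 127 and 151 CPM (1.06 ± 0.24, edgeR adjusted p = 0.0692), and Cyp2b9 overlapped (0.17 ± 0.42). By edgeR 1 female-biased gene was called without HFD female 1, HFD female 2 or RD female 1, and 2 without HFD female 5 or RD female 2. Cyp3a16 kept its call only with RD female 4 left out. Of 26 male-biased genes none was called by edgeR, 1 (Cyp2c55) was by DESeq2, lower, and the median was -0.18.

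The antioxidant NRF2 and glutathione transferase list had 2 of 23 members lower and none higher by edgeR, with a median of -0.35. In 10 members all HFD libraries lay below all RD libraries, against 9.09% of all genes tested. Gstm3, a glutathione transferase (chr3:107963696-107969283), had 18.2, 15.3 and 27.5 CPM on HFD and 60.2, 68.2 and 57.4 CPM on RD (-1.61 ± 0.30, edgeR adjusted p = 0.0260). Ugdh, which supplies glucuronic acid for conjugation (chr5:65413221-65435949), had 42.0, 37.3 and 53.5 against 103, 99.1 and 101 CPM (-1.19 ± 0.24, edgeR adjusted p = 0.0354). Neighbouring transferases were also below 0 without an edgeR call, Gstm1 at 516, 621 and 786 against 949.5, 1031 and 1009 CPM (-0.64 ± 0.23) and Gstm2 at 34.3, 40.6 and 60.6 against 97.4, 87.5 and 77.0 CPM (-0.95 ± 0.22), and these copies share sequence. Nqo1, a textbook NRF2 target, had 6.41, 6.29 and 5.50 against 8.79, 9.86 and 8.75 CPM (-0.59 ± 0.17), while Hmox1 (0.31 ± 0.29) overlapped. Leaving out HFD female 1, HFD female 2, RD female 1 or RD female 2 left 0 members called by edgeR and leaving out RD female 4 left 1, while without HFD female 5 it called 3, Gstm2 among them (-1.22, adjusted p = 0.0228). DESeq2 called 5 members, all lower: Gstm3, Ugdh, Gstm2, Nqo1 and G6pdx.

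Of the 40 called genes 21 were on none of the pathway lists. Rdh11, a retinol dehydrogenase (chr12:79174337-79192293), had 24.9, 33.5 and 57.7 CPM on HFD and 148, 148 and 122 CPM on RD (-1.85 ± 0.29, edgeR adjusted p = 0.00658). Mpv17l (chr16:13903161-13949619), a membrane protein linked to peroxide handling, had 10.3, 11.0 and 8.18 against 20.0, 21.7 and 19.7 CPM (-1.06 ± 0.16, edgeR adjusted p = 0.00641), among the few called whichever library was left out. Camk1d, a calcium-dependent kinase (chr2:5293457-5714515), had 130.1, 155 and 105 against 247, 286 and 289 CPM (-1.08 ± 0.18, edgeR adjusted p = 0.0146). The groups of all 3 were well separated.

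Some of the larger folds came from genes of low level. Prom1, a membrane glycoprotein used as a progenitor and bile duct marker (chr5:43993620-44102032), had 2.69, 1.63 and 2.73 against 12.9, 14.6 and 8.51 CPM, 5.10-fold lower (-2.35 ± 0.40, edgeR adjusted p = 0.0146). The 7 tested bile duct markers, which do not include it, had no edgeR call, a median of -0.50 and a summed level of 37.4, 44.3 and 59.0 CPM on HFD and 57.1, 65.4 and 85.5 CPM on RD, and their part in the Prom1 difference was not tested. Vtcn1, an immune checkpoint ligand, had 0.232, 0.429 and 0.228 against 1.02, 2.97 and 3.33 CPM (-3.03 ± 0.53). Sytl5, a vesicle trafficking protein, had 1.25, 1.72 and 1.48 against 11.6, 5.47 and 6.20 CPM (-2.39 ± 0.50), and Srgap3, a GTPase-activating protein, 4.77, 3.72 and 2.88 against 14.9, 14.3 and 14.7 CPM (-1.94 ± 0.38). Every HFD value of these genes lay under every RD value, with edgeR adjusted p of 0.0146, 0.0450 and 0.0354.

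A smaller fall was seen in Mmab, a vitamin B12 enzyme encoded next to Mvk (16.2, 17.6 and 19.1 against 42.6, 28.0 and 24.2 CPM, -0.84 ± 0.18). Tmem135, a peroxisomal and mitochondrial membrane protein, had 66.8, 64.3 and 52.2 against 88.4, 82.9 and 91.7 CPM (-0.52 ± 0.11), the smallest called change. Asap2 (-1.18 ± 0.24), Polr3g (-1.04 ± 0.20) and Olfr1028 (-1.83 ± 0.34) also fell. The edgeR adjusted p of these 5 genes ran from 0.0247 to 0.0495. 0610007P14Rik, which RefSeq names Erg28, a membrane protein of the endoplasmic reticulum tied to sterol synthesis, had 35.8, 40.1 and 26.2 against 67.1, 59.1 and 56.4 CPM (-0.84 ± 0.15, edgeR adjusted p = 0.0147). A further 3 called genes, all lower, have predicted-gene names and are not described.

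Besides Pcx, 4 genes rose. Dhrs4, a peroxisomal retinal reductase (chr14:55478758-55490340), had 85.7, 81.9 and 85.6 CPM on HFD and 54.6, 57.7 and 55.3 CPM on RD (0.59 ± 0.12, edgeR adjusted p = 0.0362). Pcbp4, an RNA-binding protein, had 18.3, 16.3 and 18.3 against 11.8, 11.1 and 10.8 CPM (0.65 ± 0.13, edgeR adjusted p = 0.0412). In both the replicates lay close together and the change was small. Chrna2, a nicotinic receptor subunit (chr14:66135039-66152948), had 10.5, 7.54 and 3.81 against 1.96, 2.44 and 2.28 CPM (1.71 ± 0.35, edgeR adjusted p = 0.0383), with HFD female 1 highest. The peroxisomal genes Lonp2, a protease (413, 408 and 411 against 295, 285 and 285 CPM, 0.51 ± 0.11), Ech1, an isomerase of fatty acid oxidation (285, 263 and 268 against 168, 180.2 and 175 CPM, 0.64 ± 0.14), and Ephx2, an epoxide hydrolase (603, 517 and 587 against 324, 373 and 368 CPM, 0.68 ± 0.15), were close to the threshold with groups apart (edgeR adjusted p of 0.0560, 0.0638 and 0.0560).

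Alas2, the heme synthesis enzyme of red cell precursors (chrX:150547375-150570638), was the fourth of these, with 13.5, 14.0 and 23.4 CPM on HFD and 8.65, 6.54 and 9.88 CPM on RD (1.02 ± 0.20, edgeR adjusted p = 0.0297). It was not called without HFD female 5 (0.72, edgeR adjusted p = 0.102), RD female 1 (1.04, edgeR adjusted p = 0.106) or RD female 2 (0.87, edgeR adjusted p = 0.177). All 7 erythroid markers were higher in every HFD library than in every RD library, and DESeq2 called 5. Their summed level was 451, 395 and 933 CPM on HFD and 224, 197 and 239 CPM on RD, so HFD female 5 stood above the other HFD libraries as well. The globin Hbb-bs had 195, 162 and 385 against 96.1, 79.5 and 98.7 CPM (1.44 ± 0.42, edgeR adjusted p = 0.215). In females at 2 weeks Alas2 had a mean of 16.9 CPM on HFD and 8.36 CPM on RD. In males at 2 weeks its means were far higher, at 116 and 132 CPM. Its log2 fold change in males was -0.19 ± 0.19, and DESeq2 called the difference between the sexes. The part of red cell RNA in the Alas2 difference was not tested.

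Markers of B and plasma cells went the other way without an edgeR call. All 8 had a fold change below 0, with a median of -0.63, and their summed level was 46.0, 47.5 and 68.6 CPM on HFD and 123, 65.3 and 98.6 CPM on RD, which overlap. Ighm, the immunoglobulin M heavy chain (chr12:113418558-113422730), had 5.09, 6.41 and 8.75 against 35.1, 17.0 and 17.8 CPM (-1.79 ± 0.38, edgeR adjusted p = 0.0560) and was the 1 member that DESeq2 called. The B cell surface markers Ms4a1 (0.990, 1.11 and 0.759 against 1.83, 1.56 and 1.79 CPM) and Cd79a (0.966, 1.11 and 2.03 against 2.71, 2.04 and 2.51 CPM) did not overlap between the diets either, Cd79a only narrowly. The light chain Igkc had 29.3, 29.0 and 43.0 against 62.6, 33.4 and 58.6 CPM, with RD female 2 inside the HFD range. Of the 14 lists of cell type and tissue markers none other than the erythroid and the central vein lists, through Alas2 and Cyp1a2, held an edgeR call. DESeq2 also called Krt19 of bile duct cells and Ngfr of stellate cells, both lower. Summed levels of endothelial markers ran from 446 to 573 CPM and of stellate cell markers from 402 to 478 CPM over the 6 libraries, with the diets overlapping.

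**Figure D3:**
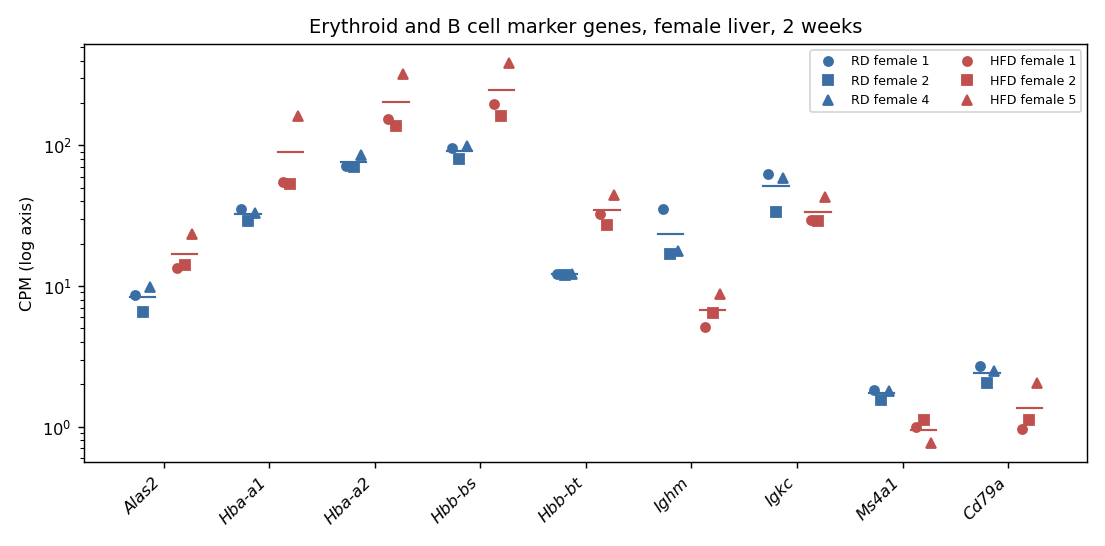
CPM on a log axis of erythroid markers (Alas2 and 4 globin genes) and B cell markers (Ighm, Igkc, Ms4a1, Cd79a) in each library, with 1 symbol per library number and a bar at the mean of each diet. The erythroid genes are higher in all 3 HFD libraries (red), with HFD female 5 (triangle) the highest, and Ighm, Ms4a1 and Cd79a are lower in all 3.

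The remaining pathway lists had no edgeR call. The median log2 fold change was 0.30 for 21 lipid droplet proteins and lipases, 0.35 for 20 interferon genes, 0.28 for 22 acute phase genes, 0.27 for 20 cell cycle genes, 0.19 for 18 apolipoprotein genes, 0.17 for 19 clock genes, -0.02 for 20 bile acid genes, -0.10 for 20 unfolded protein response genes and -0.17 for 17 insulin and IGF genes. DESeq2 called 1 apolipoprotein gene (Apoc2, higher) and 2 lipid droplet genes (Mgll, higher, and Lipa, lower) and none in the other 7 of these lists. Plin5, a lipid droplet coat protein of oxidative cells, had 97.3, 83.6 and 122 CPM on HFD and 38.8, 55.6 and 43.6 CPM on RD (1.13 ± 0.34, edgeR adjusted p = 0.236), groups apart. Hamp, the iron hormone hepcidin, had 150.1, 252 and 193 against 608, 639.9 and 775 CPM (-1.76 ± 0.60, edgeR adjusted p = 0.311), opposite in sign to the acute phase protein Hp at 1954, 1848 and 3245 against 1132, 1325 and 1038 CPM (1.01 ± 0.37). Apoe was far higher in HFD female 5, at 26771 CPM, than in the other 5 libraries, and overlapped between the diets.

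**Figure D4:**
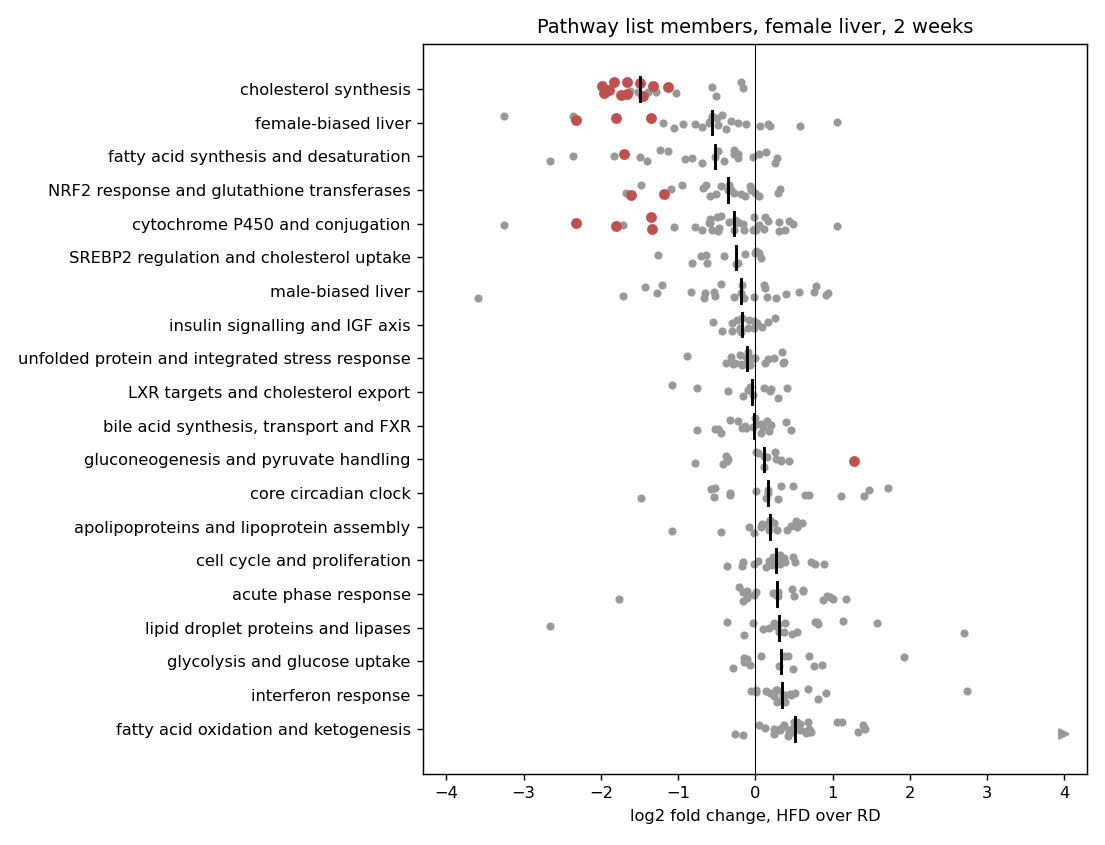
Log2 fold change (HFD over RD) of every tested member of the 20 pathway lists in female liver at 2 weeks, 1 point per gene, with called members in red, a black bar at the list median and 1 gene beyond the axis drawn as a triangle at its edge (Eci1, near 0 counts). The cholesterol synthesis list stands at the low end, with a median of -1.49 and 11 members in red.

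The same diet comparison in males at 2 weeks and in females at 12 weeks uses other libraries of the same fit and was set beside this one. The males were fed the same diets for the same time, and the other females for 12 weeks, all from the same age. In males 54 genes were called (0.34%) and in females at 12 weeks 1 (0.00629%). The male calls included 3 of the 4 tested pancreatic acinar markers, all lower on HFD. The median log2 fold change of these markers in males was -9.53, and its cause was not tested. Of the 40 genes 28 had the same sign in males, 4 of them called there, and 37 had the same sign in females at 12 weeks, none of them called. Their median absolute log2 fold change was 1.63 here, 0.39 in males and 0.65 in females at 12 weeks. Genes chosen for passing a threshold in 1 comparison tend to look smaller in another, so these medians carry no test.

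Cholesterol synthesis genes had other values there. In males the 21 members had a median of -0.06, 12 below 0 and 9 above, with none called by edgeR. In females at 12 weeks all 21 lay below 0, with a median of -0.75 and none called by edgeR. Nsdhl had log2 fold changes of -1.74 ± 0.19 here, -0.38 ± 0.19 in males and -0.67 ± 0.19 in females at 12 weeks. Idi1 had -1.96 ± 0.27, 0.05 ± 0.26 and -1.17 ± 0.26, and Msmo1 -1.45 ± 0.23, 0.57 ± 0.23 and -0.90 ± 0.23. In these 3 genes the females at 2 weeks had the most negative value and the females at 12 weeks lay between them and the males.

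For the difference between the sexes, 1511 of 15897 genes had an unadjusted edgeR p under 0.05, which some genes reach by chance. None passed the edgeR test after adjustment. Msmo1 came closest, with a difference in log2 fold change, females minus males, of -2.03 ± 0.32 and an adjusted p of 0.0559. Mvd had -2.55 ± 0.48, Hmgcs1 -2.15 ± 0.47 and Fdft1 -2.07 ± 0.47 (edgeR adjusted p of 0.117, 0.145 and 0.147). DESeq2 called 129 genes in this test (0.811%), 57 with the more positive change in females (0.359%) and 72 with the more negative (0.453%). Of these, 10 were cholesterol synthesis genes, all among the more negative, and 4 were fatty acid oxidation genes (Hadha, Acaa1b, Bdh1 and Cyp4a14), all among the more positive. Another 3 of the more positive were the pancreatic acinar markers Cela1, Cela2a and Amy2a5. Without HFD female 5 edgeR called 9 genes, among them Fdft1, Cyp51, Msmo1 and Hsd17b7, and it called 4 without RD female 4, 4 without HFD male 12, 2 without HFD male 14 and 5 without RD male 7. Between 2 and 12 weeks in females edgeR called no gene, 544 had an unadjusted p under 0.05, and the smallest adjusted p was 0.200, for Cyp3a44, whose log2 fold changes were -1.35 ± 0.19 at 2 weeks and 0.18 ± 0.19 at 12. DESeq2 called 5 there, all more negative at 2 weeks, among them Cyp1a2 and Cyp3a44. The 12-week mice were also older when sampled, and age cannot be told apart from the time on the diet.

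**Figure D5:**
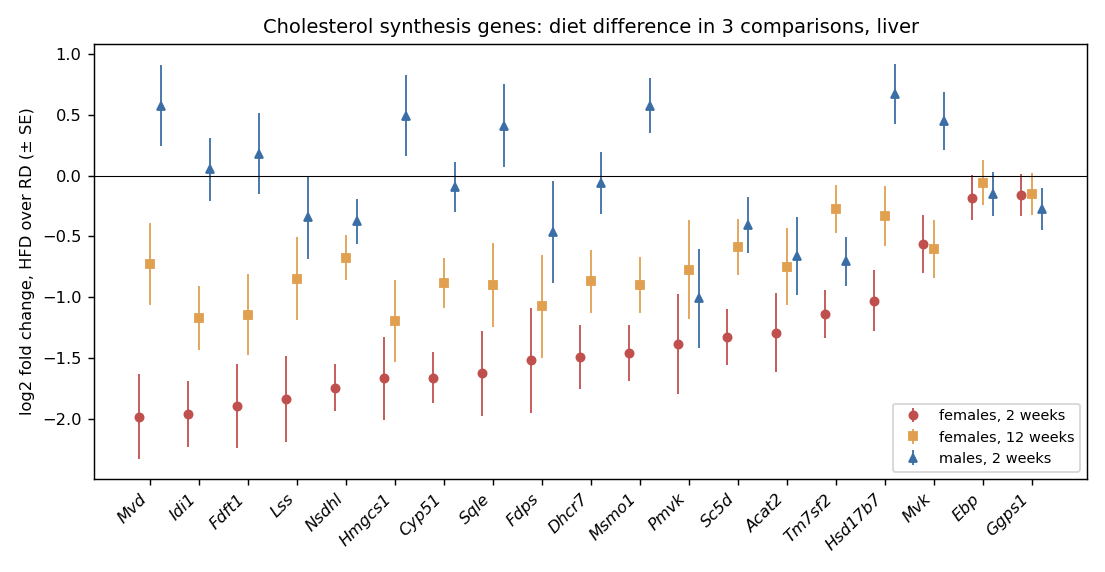
Log2 fold change (HFD over RD) with its approximate SE for 19 of the 21 cholesterol synthesis genes in females at 2 weeks (red circles), females at 12 weeks (orange squares) and males at 2 weeks (blue triangles). The females at 2 weeks lie lowest in most genes, the females at 12 weeks between, and the males scatter around 0.

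Other lists and genes had their own values in males and older females. Pcx had log2 fold changes of 1.28 ± 0.25 here, 1.01 ± 0.25 in males and 0.82 ± 0.25 in females at 12 weeks. Gstm3 fell in males too (-1.81 ± 0.30, edgeR adjusted p = 0.0125), as did Tmem135 (-0.51 ± 0.11, edgeR adjusted p = 0.0440), and their sex differences of 0.20 ± 0.42 and -0.01 ± 0.16 were not called by edgeR. The NRF2 list had a median of -0.74 in males with 4 members lower. Ighm had -1.72 ± 0.38 in males and -1.79 ± 0.38 here, called by edgeR in neither. For Cyp1a2 the values were -1.34 ± 0.18 in females and -0.20 ± 0.18 in males (sex difference -1.14 ± 0.26, edgeR adjusted p = 0.145). The fatty acid oxidation list, with a median of 0.51 here, had -0.08 in males and 0.24 in females at 12 weeks, and Bdh1 had 0.69 ± 0.15, -0.19 ± 0.15 and 0.34 ± 0.15. The acute phase list, at 0.28 here, had a median of 1.36 in males with 3 members higher.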

How the data were processed

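PolyA RNA of 24 liver libraries in 8 groups of diet, time and sex was measured, 3 per group. The deposited table holds expected counts for 30055 gene symbols in 48 libraries, made by the authors. Per the submitters' processing notes kallisto, edgeR, DESeq2 and GRCm38 were named, without roles or versions, and the way transcript estimates were summed per gene is not stated there. Counts were rounded, filtered (filterByExpr by group), scaled by TMM and tested with edgeR 4.0.16 (robust quasi-likelihood, all 24 libraries sharing 1 spread estimate, R 4.3.3), with Benjamini-Hochberg adjustment over 15897 genes. SE values are the absolute log2 fold change divided by the root of F, and are approximate. Differences between diet effects were contrasts of the same fit. Gene positions are from the GENCODE M21 annotation of GRCm38.

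Alternatives were other scaling, DESeq2 1.42.0, no filter, robust = FALSE, a replicate block, fewer libraries, and each library left out. Genes were named by rule: called genes without predicted names, the 4 smallest p per pathway list, and the 5 nearest misses with groups apart in each direction. Other list members were named for their known roles, after their values were seen. The members and lists were chosen with earlier results of these data known. Some genes that the rule named are not reported here.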

Additional observations from a re-analysis of the deposited data

How the results depend on the processing

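For HFD against RD in female liver at 2 weeks, 40 genes were called by edgeR. The number was 181 with DESeq2, 25 without the filter on low counts, 14 with the 12 female liver libraries, 0 with the 6 libraries alone, and 7 to 36 with 1 library left out. With other size factors it was 40, and with robust = FALSE 42. For females minus males, 0 genes were called by edgeR, 129 by DESeq2, 1 without the filter, 1 with the 12 libraries at 2 weeks alone, and 0 to 9 with 1 library left out. For 2 minus 12 weeks in females, 0 were called by edgeR and 5 by DESeq2. The cause of these differences was not tested. The labels do not say what libraries with the same number share. Their deviations from the group means correlated at -0.0488 for number 2 and at about 0 for number 1. Only numbers 1 and 2 occur in both diets, too few to decide whether such libraries are related. With the replicate block 14 genes were called for the diet in females, 10 of them among the 40, and 7 for females minus males. Groups of 3 limit the precision of every fold change, and genes of low count have the widest error.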

Other observations

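HFD female 1 held transcripts of adrenal steroid synthesis that were low in the other 23 liver libraries; these genes were chosen after their values were seen. Cyp11b1, which makes corticosterone, was at 16.7 CPM there and at most 0.101 CPM elsewhere. Cyp21a1 was at 17.4 CPM against at most 2.96, Cyp11a1 at 9.45 CPM against at most 0.223, and Star, which carries cholesterol into mitochondria, at 23.0 CPM against at most 3.17. The adrenal transcription factor Nr5a1 was at 1.19 CPM against at most 0.0147. The ACTH receptor Mc2r was at 0.452 CPM and listed at 0 in every other liver library. HFD female 1 was also the lowest HFD library in 18 of the 21 cholesterol synthesis genes, and the part of this signal in those values was not tested. Without that library 7 of the 40 genes were called by edgeR, and the median log2 fold change of the 21 genes was -1.33. All 40 kept their direction, which was nearly assured because their groups did not overlap.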
